A study of Mus musculus with 6 samples.

Results

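The T helper type 1 (Th1) axis was followed here through 10 genes in mouse regulatory T (Treg) cells of an Rcor1 deletion group and a control group. The genes are the cytokines Ifng and Tnf, the transcription factors Tbx21 and Eomes, both chains of the IL-18 receptor (Il18r1 and Il18rap), of the IL-12 receptor (Il12rb1 and Il12rb2) and of the interferon gamma receptor (Ifngr1 and Ifngr2). They were taken by symbol from a table of 35275 Ensembl gene identifiers, and all 10 were found and tested. The deletion group came from Rcor1fl/flFoxp3YFPcre mice, which carry floxed Rcor1 and a Cre recombinase with yellow fluorescent protein (YFP) under Foxp3. The control group, labelled wild type, came from Foxp3YFPcre mice, so both groups carry the Cre allele and differ in the floxed Rcor1. All mice were males of 6 to 8 weeks. Each group had 3 biological replicates of messenger RNA from YFP-sorted, CD4-enriched cells, and no source used here says whether a library pooled several mice.

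In Th1 cells, IL-12 acts through its receptor and STAT4, and the T-box factor T-bet (Tbx21) opens the interferon gamma gene and the receptor genes that make the cell respond further to IL-12 and IL-18. Interferon gamma acts back on the cell through its own receptor. Some Treg cells use T-bet to enter Th1-type inflammation, where they restrain Th1 cells, and high interferon gamma in Treg cells is a known mark of unstable or inflamed states. Rcor1 encodes CoREST1, a scaffold that brings the demethylase Kdm1a and histone deacetylases to genes through DNA-binding repressors such as Gfi1.

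The values are FPKM (fragments scaled by gene length and library total), given per library and as mean ± SD of 3 libraries. Tests are limma on log2(FPKM + 1), deletion over control, with Benjamini-Hochberg adjustment over 11575 tested genes and a threshold of 0.05 on the adjusted p. Library totals recovered from the values were 18538581 to 22349455 fragments. Rcor1 itself was at 12.5, 13.0 and 14.2 FPKM in deletion libraries 1, 2 and 3, against 16.1, 16.1 and 15.2 FPKM in control libraries 1, 2 and 3, and did not pass (adjusted p = 0.0562). The deletion libraries were all lower, but by little, and a value per gene also counts exons outside a floxed part, so the label check is weak.

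The sorted cells carried their defining transcripts. Foxp3 lay at 99.9 to 106 FPKM in deletion libraries and 88.0 to 106 FPKM in control libraries, and of 9 Treg and T cell markers 1 rose (Ikzf2) and 1 fell (Cd3g). Over all tested genes 8.95% rose and 3.08% fell. Transcripts of other cell types that can make Th1 cytokines were present as well. Summed FPKM of 10 natural killer (NK) cell markers was 34.6, 66.9 and 57.3 in deletion libraries 1, 2 and 3 and 38.4, 53.2 and 65.4 in control libraries 1, 2 and 3, with 0 of 8 tested genes past limma's or voom's threshold and 0 at an unadjusted p under 0.05. Within this sum Tyrobp ranged from 4.998 to 21.6 FPKM in deletion libraries and 5.16 to 17.4 FPKM in control libraries. Fcer1g ranged from 3.52 to 11.7 and 4.68 to 8.95 FPKM, and Gzma from 6.68 to 11.9 and 8.89 to 19.8 FPKM, in that order. Ncr1 varied less, at 2.31 to 3.06 and 2.69 to 3.36 FPKM, as did Klrd1, at 4.09 to 5.68 and 3.43 to 4.87 FPKM. The spread of the sum was thus not shared by all its markers. The sum of 11 myeloid markers was 6.34, 375 and 49.95 in deletion libraries and 14.4, 102 and 198 in control libraries, above the Foxp3 level of the same library in deletion library 2 and control library 3, with 0 of 8 past either threshold and 0 at an unadjusted p under 0.05. The CD8 pair (Cd8a and Cd8b1) summed to 10.9 to 12.6 and 10.7 to 17.7 FPKM, and the gamma delta and NKT cell markers Tcrg-C1 and Zbtb16 to 16.8 to 34.6 and 19.3 to 37.1 FPKM, in deletion and control libraries. B and plasma cell markers summed to 457 to 544 FPKM in deletion libraries and 164 to 446 FPKM in control libraries, mostly from Jchain. Of 7 tested B and plasma cell genes 1 rose (Cd22), 4 had an unadjusted p under 0.05, 4 were higher in every deletion library than in any control library, and the median log2 fold change was 0.69. Over all tested genes 32.6% had an unadjusted p under 0.05, 29.3% were higher in every deletion library, and the median was 0.08. Lens markers summed to 0.206 to 0.406 FPKM in deletion libraries and 102 to 191 FPKM in control libraries (5 of 5 tested fell). Fat markers summed to 0.591 to 1.38 FPKM in deletion libraries and 45.5 to 56.8 FPKM in control libraries (4 of 4 tested fell). The share that fell over all tested genes was 3.08%. The test kept genes at 1 FPKM or more in at least 3 libraries. The tested lens genes reached 1 FPKM only in control libraries, and no fat gene did so in deletion library 1. Each was thus tested only through its control values, and these 2 counts follow from the filter. All 3 control libraries stand apart in lens and fat transcripts, so the deletion and whatever brought these transcripts in cannot be told apart. The part of B cell, lens or fat transcripts in the results below was not tested. No defining marker was at 0 in every library except Lim2 of the lens. In bulk RNA, more cells that make a transcript and more transcript per cell cannot be told apart.

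Of the 10 Th1-axis genes 5 rose, Ifng, Tnf, Tbx21, Il18r1 and Il18rap, and 0 fell. Among all tested genes 8.95% rose and 3.08% fell. The 10 genes were chosen with earlier results of these data known, so the contrasts in this paragraph are descriptions only. An unadjusted p under 0.05 was reached by 5 of the 10 and by 32.6% of all genes. With voom on recovered fragments 5 of the 10 rose and 0 fell, against 6.07% and 6.29% of all genes. The median log2 fold change was 0.41 over the 10 genes and 0.08 over all genes. In the same 5 genes every deletion library lay above every control library, against 29.3% of all tested genes, and 0 lay wholly below, against 9.79%. The 5 genes that did not pass were Eomes, both IL-12 receptor chains and both interferon gamma receptor chains. The share of genes that rose depends on how libraries are scaled. With median-ratio scaling 4.83% of all genes rose and 5.46% fell, and 3 of the 10 rose (Ifng, Tnf and Il18r1). With quantile normalization 4.09% of all genes rose and 3.41% fell, and again those 3 rose. Leaving out 1 library left 1 to 3 that rose, or 4 without control library 2, and with no filter on low values Ifng and Il18r1 rose.

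**Figure D1:**
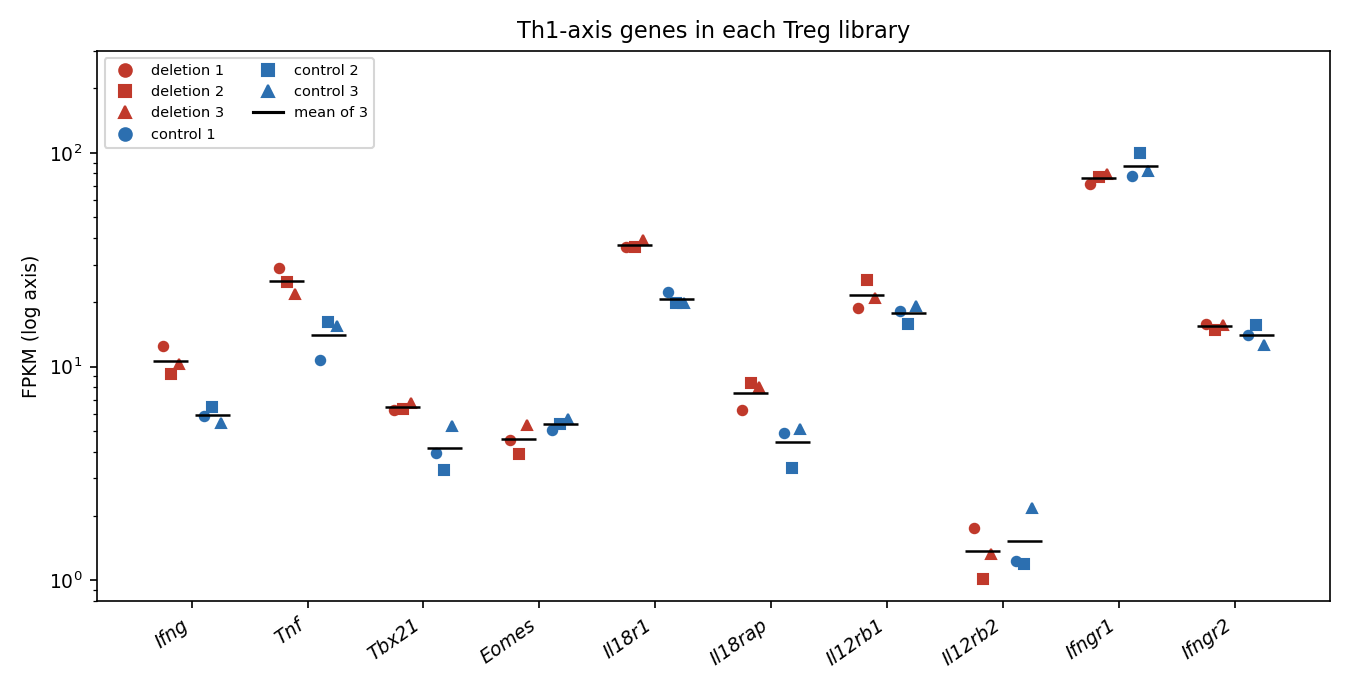
FPKM on a log axis for the 10 Th1-axis genes in each library, deletion in red left of control in blue, with symbols for libraries 1 to 3 and a bar for the mean of 3. Red and blue points do not overlap for Ifng, Tnf, Tbx21, Il18r1 and Il18rap, and overlap for the other 5 genes.

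Ifng (ENSMUSG00000055170, chromosome 10, 118441046 to 118445892, plus strand of GRCm38) encodes interferon gamma, the defining cytokine of Th1 cells. It was at 12.4, 9.26 and 10.3 FPKM in deletion libraries 1, 2 and 3, against 5.87, 6.46 and 5.45 FPKM in control libraries 1, 2 and 3. These values rest on 335, 227 and 251 fragments in deletion libraries and 146, 155 and 122 fragments in control libraries. The lowest deletion library stood well above the highest control library, and deletion library 1 was the highest of all. Mean Ifng was 10.6 ± 1.6 FPKM in deletion libraries and 5.92 ± 0.50 FPKM in control libraries, 1.80-fold higher (log2 fold change 0.74, SE 0.11, 95% interval 0.48 to 1.01, adjusted p = 0.0114). The part of NK and B cell transcripts, summed above for each library, in the Ifng values was not tested. The call was lost without deletion library 3 (adjusted p = 0.0518) or control library 1 (adjusted p = 0.0531).

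Tnf (ENSMUSG00000024401, chromosome 17, 35199381 to 35202007, minus strand) encodes tumour necrosis factor, an inflammatory cytokine of Th1 cells, macrophages and other cells. It was at 28.9, 24.8 and 21.8 FPKM in deletion libraries 1, 2 and 3, against 10.8, 16.1 and 15.4 FPKM in control libraries 1, 2 and 3. The groups were separate, with control library 1 the lowest. Mean Tnf was 25.2 ± 3.6 FPKM in deletion libraries and 14.1 ± 2.9 FPKM in control libraries, 1.79-fold higher (log2 fold change 0.80, SE 0.16, 95% interval 0.42 to 1.19, adjusted p = 0.0255). The part of myeloid transcripts, which varied widely between libraries of both groups, in the Tnf values was not tested. Leaving out any 1 library other than control library 2 took the adjusted p to between 0.0551 and 0.0787.

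The windows around the starts of both cytokine genes are shown because both hold a match to the TATA box, an element that sets the start of transcription at many inducible genes. They are RefSeq windows on GRCm38.p6 from 250 bases before to 50 bases after the start, at chr10:118440796-118441095 on the plus strand for Ifng and chr17:35201958-35202257 on the minus strand for Tnf. Capitals mark matches to TATAAA, searched on the sense strand, and to the STAT pattern TTCNNNGAA, searched on both strands.
Ifng: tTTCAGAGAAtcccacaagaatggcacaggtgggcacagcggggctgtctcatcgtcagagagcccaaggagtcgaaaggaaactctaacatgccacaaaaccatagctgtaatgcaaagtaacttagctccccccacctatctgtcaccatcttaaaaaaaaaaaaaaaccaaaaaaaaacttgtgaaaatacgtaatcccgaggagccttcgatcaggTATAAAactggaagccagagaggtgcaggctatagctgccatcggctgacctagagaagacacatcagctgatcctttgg
Tnf: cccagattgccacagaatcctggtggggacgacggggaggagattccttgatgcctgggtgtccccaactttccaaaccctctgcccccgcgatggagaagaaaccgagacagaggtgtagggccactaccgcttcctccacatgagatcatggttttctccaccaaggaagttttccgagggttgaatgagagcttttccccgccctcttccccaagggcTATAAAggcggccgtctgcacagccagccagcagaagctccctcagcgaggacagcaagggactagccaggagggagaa
TATAAA begins at -30 from the start in Ifng and at -29 in Tnf. It occurred in 2 of the 9 members' windows that RefSeq gave, these 2, and in 8.32% of all 32851 windows. The STAT pattern occurred at -249 in Ifng and at -123 in Il12rb2, and in 8.3% of all windows. A match of letters is a description and does not show that a factor binds.

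Of the 2 lineage factors, Tbx21 rose and Eomes did not pass. Tbx21 (ENSMUSG00000001444, chromosome 11, 97098071 to 97115331, minus strand), which encodes the Th1 regulator T-bet, was at 6.28, 6.31 and 6.73 FPKM in deletion libraries 1, 2 and 3, against 3.94, 3.29 and 5.27 FPKM in control libraries 1, 2 and 3. The deletion libraries were close together and all higher, while control library 3 came nearest to them. Mean Tbx21 was 6.44 ± 0.25 FPKM in deletion libraries and 4.17 ± 1.0 FPKM in control libraries, 1.55-fold higher (log2 fold change 0.54, SE 0.14, 95% interval 0.22 to 0.87, adjusted p = 0.0479). This is just inside the threshold. Omitting a library other than control library 3 ended the call (adjusted p between 0.0588 and 0.146), as did median-ratio scaling (0.0776) and quantile normalization (0.108).

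Eomes (ENSMUSG00000032446, chromosome 9, 118478212 to 118486132, plus strand), a related T-box factor that drives interferon gamma in CD8 T cells and NK cells, was at 4.51, 3.88 and 5.33 FPKM in deletion libraries 1, 2 and 3, against 5.04, 5.38 and 5.68 FPKM in control libraries 1, 2 and 3. The groups overlapped through deletion library 3. The log2 fold change was -0.20 (SE 0.11, 95% interval -0.45 to 0.06, adjusted p = 0.244), so an increase of the size seen for Tbx21 lies outside its interval.

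Both chains of the IL-18 receptor were higher in the deletion libraries. Il18r1 (ENSMUSG00000026070, chromosome 1, 40465552 to 40500854, plus strand) encodes the chain that binds IL-18. It was at 36.2, 36.4 and 38.9 FPKM in deletion libraries 1, 2 and 3, against 22.4, 19.9 and 19.8 FPKM in control libraries 1, 2 and 3. Spread within each group was small beside the gap between them, and the counts behind these values were 3076 to 3361 fragments in deletion libraries and 1523 to 1923 fragments in control libraries. Mean Il18r1 was 37.2 ± 1.5 FPKM in deletion libraries and 20.7 ± 1.5 FPKM in control libraries, 1.80-fold higher (log2 fold change 0.82, SE 0.068, 95% interval 0.66 to 0.98, adjusted p = 0.00153). Of the 10 genes, Il18r1 alone passed under all 14 other settings tried, with log2 fold changes from 0.72 to 0.87.

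Il18rap (ENSMUSG00000026068, chromosome 1, 40515362 to 40551705, plus strand) encodes the accessory chain that the receptor needs to signal. It was at 6.29, 8.35 and 7.98 FPKM in deletion libraries 1, 2 and 3, against 4.90, 3.35 and 5.10 FPKM in control libraries 1, 2 and 3. All deletion libraries were higher, by a smaller margin between deletion library 1 and control library 3. Mean Il18rap was 7.54 ± 1.1 FPKM in deletion libraries and 4.45 ± 0.96 FPKM in control libraries, 1.69-fold higher (log2 fold change 0.66, SE 0.16, 95% interval 0.29 to 1.03, adjusted p = 0.041). The call held without control library 2 and was lost when any other was omitted (adjusted p between 0.0581 and 0.134), as under median-ratio scaling (0.0624) and quantile normalization (0.0813).

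The start windows of the receptor genes are shown because both rose and lie side by side. They are at chr1:40465302-40465601 for Il18r1, the window of 3 that matches the annotated gene start, and chr1:40515112-40515411 for Il18rap, both on the plus strand of GRCm38.p6.
Il18r1: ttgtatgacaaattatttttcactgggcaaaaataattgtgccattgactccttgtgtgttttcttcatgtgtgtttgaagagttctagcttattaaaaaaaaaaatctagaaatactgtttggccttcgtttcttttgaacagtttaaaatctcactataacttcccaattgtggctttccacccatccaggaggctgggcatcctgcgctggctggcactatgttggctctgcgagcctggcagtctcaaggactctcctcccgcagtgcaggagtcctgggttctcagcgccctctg
Il18rap: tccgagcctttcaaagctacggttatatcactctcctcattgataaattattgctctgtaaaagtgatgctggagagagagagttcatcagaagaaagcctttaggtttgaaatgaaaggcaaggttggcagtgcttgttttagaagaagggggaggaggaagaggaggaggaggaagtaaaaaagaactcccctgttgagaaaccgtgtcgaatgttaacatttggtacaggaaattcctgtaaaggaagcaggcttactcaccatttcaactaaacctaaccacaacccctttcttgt
Neither holds capitals, since none of the 5 patterns searched was found. Besides TATAAA and the STAT pattern these were GGTGTGA, a T-box pattern, AATCAC, a GFI1 core, and TGANTCA for AP-1, all on both strands. Those 3 occurred in 0 of the 9 members' windows and in 3.98%, 10.4% and 7.81% of all windows. An absent match says only that these letters are not in this window.

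Il18r1 and Il18rap belong to a cluster of IL-1 receptor family genes on chromosome 1, all on the plus strand. Il1rl1, which encodes the IL-33 receptor ST2, ends 136 bases before Il18r1 starts, and Il18rap follows Il18r1 after 14.5 kb. Il1rl1 rose too, with 9.81, 9.64 and 9.75 FPKM in deletion libraries 1, 2 and 3, against 7.08, 7.35 and 6.83 FPKM in control libraries 1, 2 and 3 (log2 fold change 0.41, SE 0.059, adjusted p = 0.01). Its call was lost without deletion library 3 (adjusted p = 0.0542). Il1rl2, the IL-36 receptor, was at 1.63, 1.92 and 1.67 FPKM in deletion libraries and 0.796, 1.11 and 1.16 FPKM in control libraries, higher in each deletion library but just short of the threshold (adjusted p = 0.0501).

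Other genes of the cluster did not rise. Il1r2, a decoy receptor for IL-1, was at 11.6, 17.4 and 15.2 FPKM in deletion libraries 1, 2 and 3, against 20.4, 17.7 and 23.4 FPKM in control libraries 1, 2 and 3. All deletion libraries were lower (log2 fold change -0.46, SE 0.15, adjusted p = 0.0924, and 0.0493 with voom on recovered fragments). Il1r1, the signalling IL-1 receptor, overlapped between groups at 0.532 to 2.76 FPKM in deletion libraries and 0.949 to 1.86 FPKM in control libraries (adjusted p = 0.988). Slc9a4, a sodium and proton exchanger gene beyond Il18rap, was at 0 in all deletion libraries and at most 0.0141 FPKM in a control library. Thus 3 of the 6 tested genes of the cluster rose and 0 fell by limma, and 5 had an unadjusted p under 0.05. Both counts include Il18r1 and Il18rap, the members around which the cluster was taken, so they are descriptions only. Among the other tested genes of the cluster Il1rl1 alone rose. Over all tested genes 8.95% rose, 3.08% fell and 32.6% had an unadjusted p under 0.05. Voom gave 3 that rose and 1 that fell, while median-ratio and quantile scaling each gave 2 and 0.

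The Tnf cluster on chromosome 17 gives a second case of neighbours. Lta, which encodes lymphotoxin alpha, lies 1.16 kb from Tnf and was at 53.3, 40.9 and 46.0 FPKM in deletion libraries 1, 2 and 3, against 35.5, 45.2 and 38.8 FPKM in control libraries 1, 2 and 3. Ltb, which encodes lymphotoxin beta, lies 3.06 kb away on the other side, at 559, 522 and 522 FPKM in deletion libraries and 471, 509 and 522 FPKM in control libraries. Both overlapped between groups and neither passed (adjusted p = 0.236 for Lta and 0.307 for Ltb). Their log2 fold changes of 0.23 (95% interval -0.06 to 0.51) and 0.09 (-0.05 to 0.23) stood beside 0.80 for Tnf, and the difference between the genes was not tested.

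**Figure D2:**
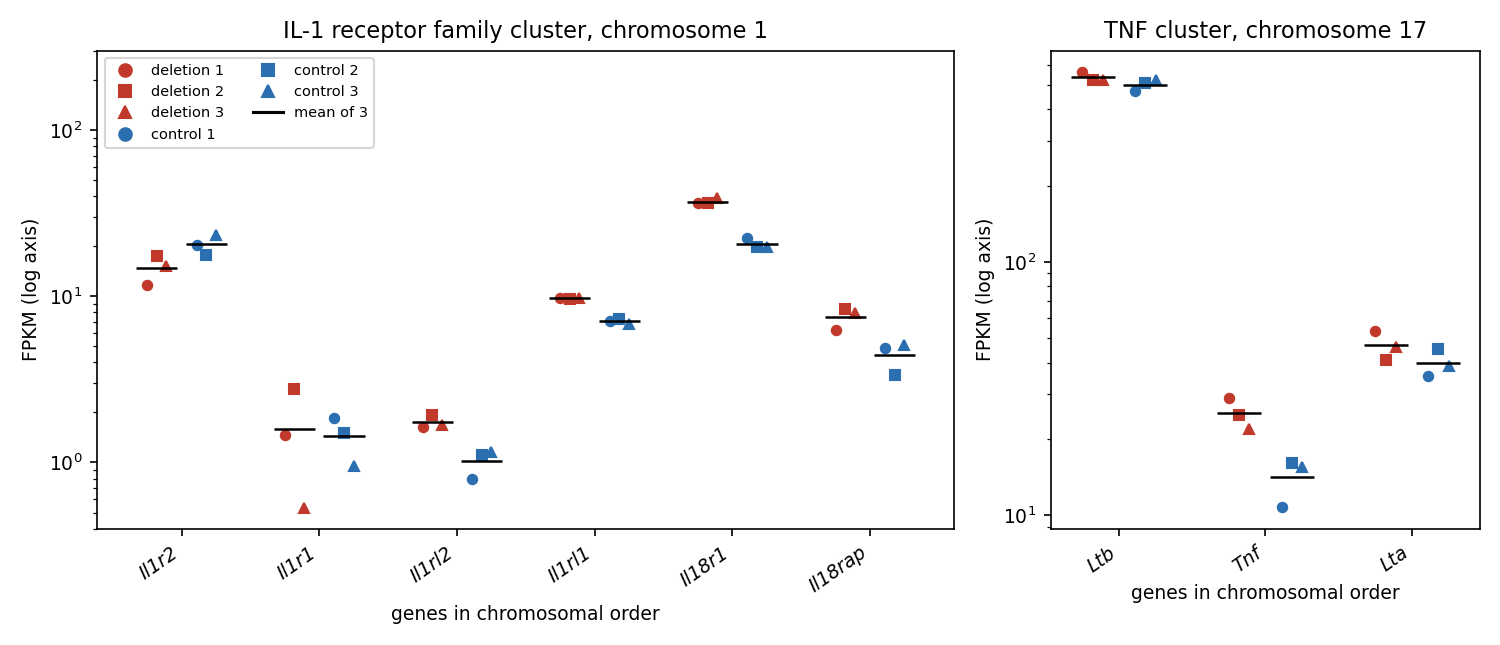
FPKM on a log axis for genes of the IL-1 receptor cluster (left) and the Tnf cluster (right), in chromosomal order, with deletion libraries in red left of control libraries in blue and bars for means of 3. Il1rl2, Il1rl1, Il18r1 and Il18rap lie higher in every deletion library, Il1r2 lies lower, and Tnf separates while Ltb and Lta overlap.

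The IL-12 receptor chains did not pass. Il12rb1 (ENSMUSG00000000791, chromosome 8, 70808449 to 70821424, plus strand), the chain shared with the IL-23 receptor, was at 18.8, 25.4 and 20.9 FPKM in deletion libraries 1, 2 and 3, against 18.1, 15.8 and 19.3 FPKM in control libraries 1, 2 and 3. Deletion library 1 lay within the control range. The log2 fold change was 0.27 (SE 0.12, 95% interval -0.01 to 0.56, adjusted p = 0.168).

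Il12rb2 (ENSMUSG00000018341, chromosome 6, 67291318 to 67376188, minus strand), the chain that recruits STAT4 and restricts IL-12 responses to Th1 and NK cells, was the lowest of the 10 genes. It was at 1.76, 1.02 and 1.33 FPKM in deletion libraries 1, 2 and 3, against 1.23, 1.19 and 2.18 FPKM in control libraries 1, 2 and 3, from 62 to 118 and 71 to 121 fragments. The groups overlapped (log2 fold change -0.08, SE 0.19, 95% interval -0.53 to 0.36, adjusted p = 0.778). Its annotated span shares 6419 bases with Serbp1 on the opposite strand, which lay at 93.4 to 95.3 FPKM in deletion libraries and 97.7 to 123 FPKM in control libraries. Without stated strand counting, fragments of the 2 genes cannot be fully told apart, so the level of Il12rb2 is uncertain.

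The interferon gamma receptor was the most abundant pair. Ifngr1 (ENSMUSG00000020009, chromosome 10, 19591949 to 19610229, plus strand), the ligand-binding chain, was at 71.6, 77.3 and 79.2 FPKM in deletion libraries 1, 2 and 3, against 77.7, 99.7 and 82.5 FPKM in control libraries 1, 2 and 3. Control library 2 was the highest and the groups overlapped (log2 fold change -0.18, SE 0.097, 95% interval -0.41 to 0.05, adjusted p = 0.242). Ifngr2 (ENSMUSG00000022965, chromosome 16, 91547072 to 91565623, plus strand), the chain that completes the signalling receptor, was at 15.8, 14.9 and 15.7 FPKM in deletion libraries 1, 2 and 3, against 14.1, 15.6 and 12.6 FPKM in control libraries 1, 2 and 3. These overlapped too, through control library 2 (log2 fold change 0.13, SE 0.082, 95% interval -0.06 to 0.33, adjusted p = 0.309).

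**Figure D3:**
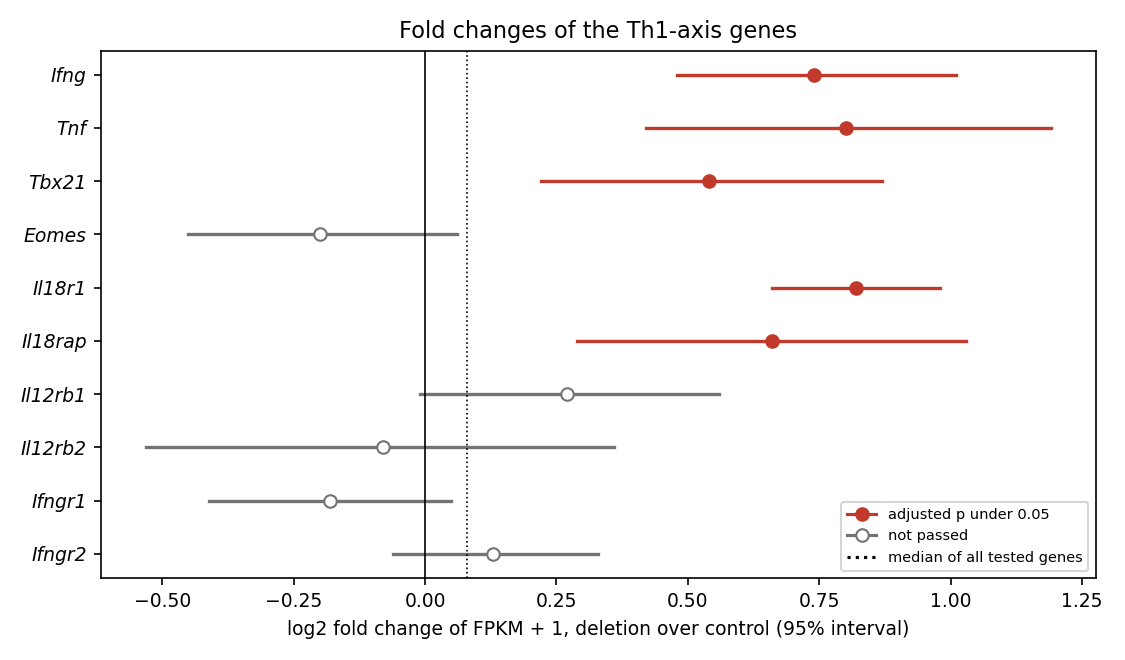
Log2 fold change of FPKM + 1, deletion over control, with 95% intervals for the 10 Th1-axis genes, with filled red points for an adjusted p under 0.05 and a dotted line at the median of all tested genes (0.08). The intervals of Ifng, Tnf, Tbx21, Il18r1 and Il18rap lie above 0, and those of the other 5 genes include 0.

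Ordered by mean FPKM, both groups began with Ifngr1 and Il18r1 and ended with Il12rb2. In deletion libraries the order was Ifngr1, Il18r1, Tnf, Il12rb1, Ifngr2, Ifng, Il18rap, Tbx21, Eomes and Il12rb2, and only Tnf with Il12rb1 and Il18rap with Tbx21 overlapped among neighbours. In control libraries Il12rb1, Tnf and Ifngr2 were not separated from their neighbours in that run, nor were Ifng, Eomes, Il18rap and Tbx21 from theirs. Eomes thus stood above Il18rap and Tbx21 in control means and below both in deletion means. Orders between genes depend on the gene lengths used for FPKM. A two-sided exact permutation test on FPKM gave p = 0.1 for each of the 5 genes that rose, the smallest that 3 against 3 libraries allow, and p = 0.2 to 0.7 for the other 5.

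The counts in the related lists below stand beside 8.95% of all tested genes that rose, 3.08% that fell and 32.6% with an unadjusted p under 0.05, and with 9 to 30 tested genes a list, counts near these shares say nothing particular about a list. Of 9 tested genes of IL-12 receptor signalling, 0 rose and 0 fell by limma and by voom, and 2 had an unadjusted p under 0.05, with a median log2 fold change of 0.19. Without control library 2 the count that rose was 2. Tyk2, the kinase bound to Il12rb1, was at 35.4 ± 1.6 FPKM in deletion libraries and 31.0 ± 1.1 FPKM in control libraries (adjusted p = 0.0739). Socs1, a feedback inhibitor of this pathway and of interferon gamma signalling, was at 73.2 ± 12 FPKM in deletion libraries and 54.8 ± 10 FPKM in control libraries (adjusted p = 0.118). Its groups overlapped through control library 2.

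Components around the IL-18 receptor moved in both directions. Of 16 tested genes of IL-18 and IL-1 receptor signalling, 4 rose and 1 fell, with a median log2 fold change of 0.15. An unadjusted p under 0.05 was reached by 6 of the 16, near the 32.6% of all tested genes. Over all tested genes 8.95% rose and 3.08% fell. Il18, the ligand itself, was at 2.87, 3.44 and 2.82 FPKM in deletion libraries 1, 2 and 3, against 1.31, 1.93 and 1.54 FPKM in control libraries 1, 2 and 3 (log2 fold change 0.64, SE 0.12, adjusted p = 0.0215). These values rest on only 45, 49 and 40 fragments in deletion libraries and 19, 27 and 20 fragments in control libraries. With voom Il18 did not pass (adjusted p = 0.061). Sigirr, a receptor of the same family that dampens IL-18 and IL-1 signals, rose to 68.0 ± 3.4 FPKM in deletion libraries, against 56.3 ± 2.8 FPKM in control libraries (adjusted p = 0.0382).

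Gadd45g, a stress-response gene that sustains interferon gamma production in Th1 cells through p38 signalling, rose to 23.7 ± 2.6 FPKM in deletion libraries, against 15.5 ± 3.0 FPKM in control libraries (adjusted p = 0.0424). Tab1, an activator of the kinase TAK1, rose to 10.3 ± 0.49 FPKM in deletion libraries, against 8.35 ± 0.39 FPKM in control libraries (adjusted p = 0.0416). Traf6, the ubiquitin ligase downstream of Myd88, fell to 15.4 ± 0.35 FPKM in deletion libraries, against 18.7 ± 1.1 FPKM in control libraries (log2 fold change -0.26, adjusted p = 0.0389). Each of the 5 calls held in 1 of 6 fits with a library left out, without control library 3 for Traf6 and without control library 2 for the rest, and adjusted p-values otherwise reached 0.0756 (Il18) to 0.141 (Tab1). With median-ratio scaling 1 rose (Il18) and 1 fell (Traf6), and with voom 1 rose (Gadd45g) and 1 fell (Traf6).

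Of 11 tested Th1 cofactors, factors that act beside T-bet, 0 rose and 0 fell by limma and by voom, against 8.95% and 3.08% of all genes by limma, and 1 had an unadjusted p under 0.05, with a median log2 fold change of 0.15. That one, Bcl6, a repressor that binds T-bet, was at 9.11 ± 0.72 FPKM in deletion libraries and 6.42 ± 1.3 FPKM in control libraries (adjusted p = 0.0611). Id2, an E protein inhibitor, was at 74.7 ± 7.7 FPKM in deletion libraries and 63.3 ± 8.5 FPKM in control libraries (adjusted p = 0.197).

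Of 15 tested Th1 effector genes 2 rose and 0 fell, 5 had an unadjusted p under 0.05, and the median log2 fold change was 0.17. These counts are close to the shares over all genes. Cxcr3, the chemokine receptor that takes Th1 cells and T-bet-positive Treg cells to inflamed tissue, was at 39.5, 44.3 and 38.8 FPKM in deletion libraries 1, 2 and 3, against 22.8, 20.9 and 29.6 FPKM in control libraries 1, 2 and 3 (log2 fold change 0.73, SE 0.13, adjusted p = 0.0177). Klrg1, an inhibitory receptor of terminally differentiated cells, rose to 22.5 ± 0.88 FPKM in deletion libraries, against 17.9 ± 1.1 FPKM in control libraries (adjusted p = 0.0264). Both calls held without control library 2 and without control library 3, and leaving out another library took the adjusted p to as much as 0.0689 for Cxcr3 and 0.105 for Klrg1. With median-ratio scaling and with voom 1 rose (Cxcr3). Named after its values were seen, Ccl5, a chemokine of effector T cells, was at 26.8, 46.1 and 45.2 FPKM in deletion libraries 1, 2 and 3, against 64.8, 52.5 and 64.3 FPKM in control libraries 1, 2 and 3, lower in every deletion library (adjusted p = 0.0848, and 0.0421 with voom).

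Of 11 tested genes of interferon gamma receptor signalling 0 rose and 0 fell by limma, and 3 had an unadjusted p under 0.05. With median-ratio scaling and with voom 0 rose and 1 fell (Irf2). The median log2 fold change was 0.06, and -0.03 under both of these settings. Without control library 2, Socs1 rose (limma, adjusted p = 0.0356). Irf2, an antagonist of Irf1, was at 42.7 ± 2.1 FPKM in deletion libraries and 48.8 ± 1.8 FPKM in control libraries. Its adjusted p was 0.0739 by limma, 0.0363 with median-ratio scaling and 0.0295 with voom. Of 30 tested interferon gamma response genes 2 rose and 1 fell, 15 had an unadjusted p under 0.05, and the median log2 fold change was 0.14, against 0.08 over all genes. Gbp9, a guanylate-binding protein with close paralogs between which counting can divide fragments, rose to 40.6 ± 3.5 FPKM in deletion libraries, against 29.2 ± 3.0 FPKM in control libraries (adjusted p = 0.0256).

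Cd274, the inhibitory ligand PD-L1, rose to 21.9 ± 0.83 FPKM in deletion libraries, against 17.03 ± 1.9 FPKM in control libraries (adjusted p = 0.0415). Psme2, a subunit of the proteasome activator PA28, fell to 287 ± 9.0 FPKM in deletion libraries, against 353 ± 28 FPKM in control libraries (adjusted p = 0.0353). Cd274 and Psme2 passed without control library 2 and no other, Gbp9 also without deletion library 2. The response list split differently with the scaling, with 1 that rose and 3 that fell under median-ratio scaling and 1 and 5 by voom. Leaving out 1 library gave 0 to 7 that rose and 0 to 2 that fell, both highest without control library 2.

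The genes around Tnf included its receptor and its sheddase. Of 15 tested genes of the TNF axis 4 rose and 0 fell, with 4 at an unadjusted p under 0.05 and a median log2 fold change of 0.09. Zfp36, which encodes tristetraprolin, a protein that destabilises Tnf messenger RNA, rose to 369 ± 25 FPKM in deletion libraries, against 258 ± 44 FPKM in control libraries (log2 fold change 0.53, SE 0.12, adjusted p = 0.038). Tnfrsf1a, TNF receptor 1, rose to 17.5 ± 0.34 FPKM in deletion libraries, against 13.8 ± 1.5 FPKM in control libraries (adjusted p = 0.0479). Adam17, the protease that sheds TNF from the cell surface, rose to 25.4 ± 1.4 FPKM in deletion libraries, against 21.0 ± 0.95 FPKM in control libraries (adjusted p = 0.0416). Tradd, an adaptor of TNF receptor 1, rose to 24.0 ± 1.3 FPKM in deletion libraries, against 20.1 ± 0.46 FPKM in control libraries (adjusted p = 0.0429). With median-ratio scaling 0 of the 15 rose, with voom 1 did (Zfp36), and with 1 library left out 3 rose without control library 2 and 0 without any other. Adam17 passed in none of those 6 fits.

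**Figure D4:**
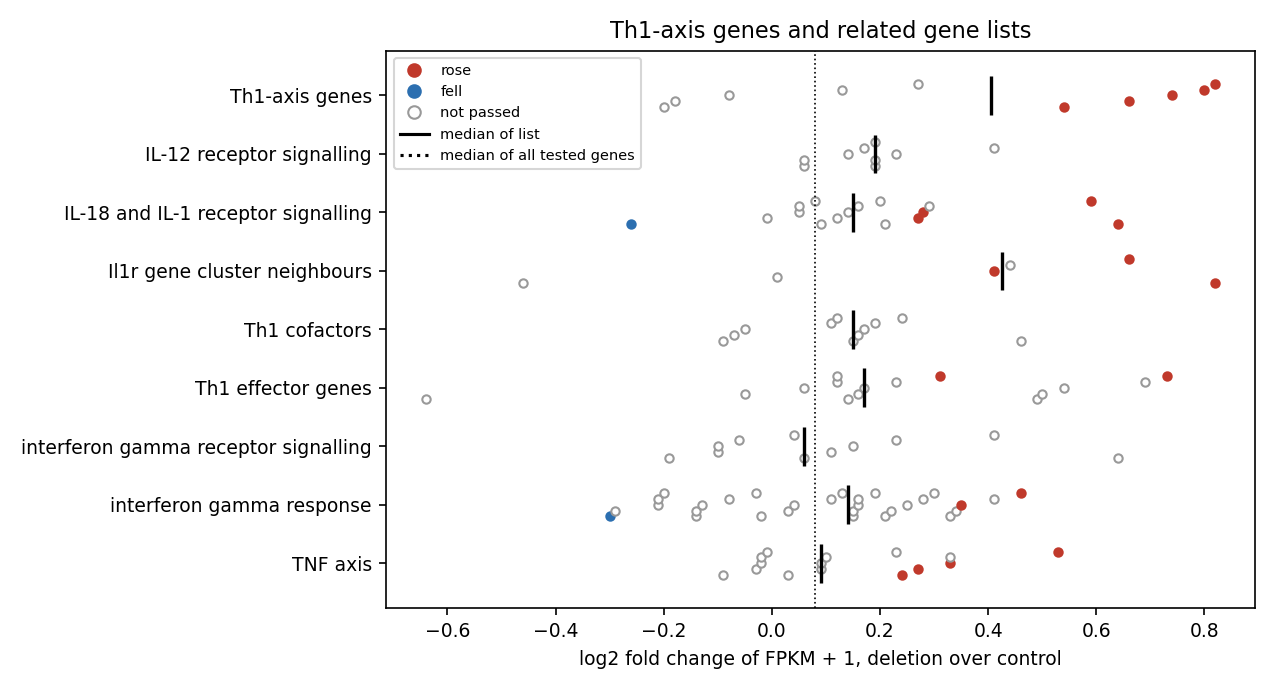
Log2 fold change of FPKM + 1, deletion over control, for each tested gene of the 10 Th1-axis genes and of 8 related lists, with filled points for genes that rose (red) or fell (blue), a bar for each list's median and a dotted line for the median of all tested genes. The Th1-axis genes have a median of 0.41 and the interferon gamma response one of 0.14, and some genes stand in several lists.

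The genes whose pattern over the 6 libraries lay nearest to that of Il18r1, by root mean square difference of centred log2(FPKM + 1), were Cd101 (0.0523), Per3 (0.0743) and Syde1 (0.0744). Cd101, an inhibitory surface receptor found on some Treg cells, was at 17.6, 17.2 and 17.7 FPKM in deletion libraries 1, 2 and 3, against 9.74, 9.01 and 9.57 FPKM in control libraries 1, 2 and 3. Nearest to Ifng were Tm6sf1 (0.0307), Xkrx (0.0457) and Nab2 (0.0709). Nab2, a corepressor of Egr factors, was at 23.0, 19.3 and 22.2 FPKM in deletion libraries 1, 2 and 3, against 12.5, 14.6 and 11.8 FPKM in control libraries 1, 2 and 3. All 6 were higher in every deletion library. They were chosen by likeness to genes that separate the groups, so this follows from the choice. Per3 reached 1 FPKM only in deletion libraries, with 0.36 to 0.511 FPKM in control libraries.

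**Figure D5:**
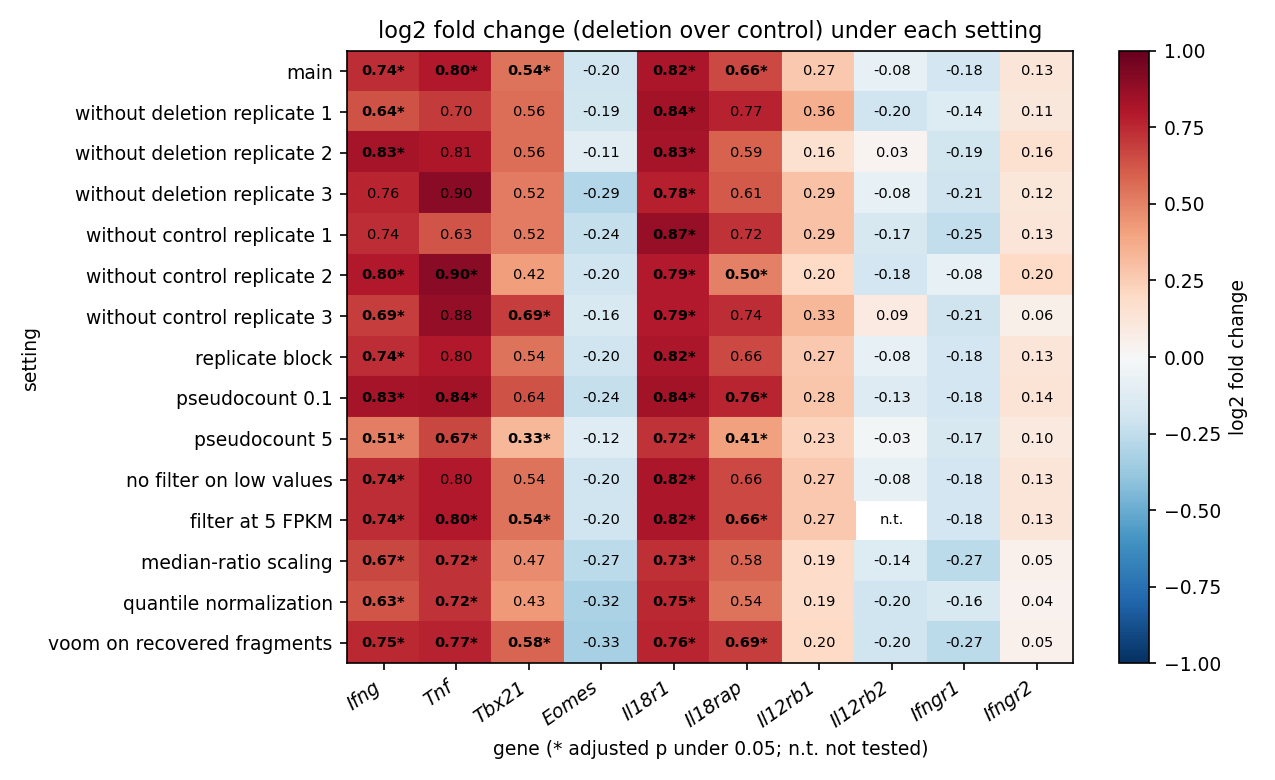
Log2 fold change (deletion over control) of the 10 Th1-axis genes, across, under the main analysis and 14 other settings, down, with an asterisk for an adjusted p under 0.05. Il18r1 passes in every row and Ifng in all but 2 of the 14, whereas Tbx21, Il18rap and Tnf pass in 4, 5 and 7 of them.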

How the data were processed

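Gene symbols and coordinates were read from the GENCODE M21 annotation (GRCm38, also called mm10), and 34490 of 35275 identifiers matched a symbol. The authors deposited FPKM values, 1 column per library. STAR and mm10 are named in the submitters' processing notes, while no source used here gives the counting tool, annotation release or strand setting. Whole fragments were recovered as FPKM times gene length times library total. Of 21898 genes above 0, 15336 (70.0%) gave whole numbers within 0.01 fragments with the longest transcript, 6561 with a solved length, and 1 did not.

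The 11575 genes reaching 1 FPKM in 3 or more of the 6 libraries entered limma 3.58.1 (R 4.3.3, variance trend on expression) as log2(FPKM + 1), two-sided, with Benjamini-Hochberg adjustment and no fold limit. Fold changes on this scale understate those of low genes. Alternatives were each library left out, a replicate block, other pseudocounts (0.1 and 5), other filters (none, or 5 FPKM), median-ratio and quantile scaling, and voom on recovered fragments with median-ratio scaling. Gene and marker lists give counts without a list test. Named genes were all 10 members, up to 5 genes of each list past the threshold or the 2 with the smallest p, the receptor cluster, and 3 genes most like Il18r1 and Ifng, leaving out predicted genes, clone names, pseudogenes and receptor segments. Gbp5, Gbp6 and Trdc were not analysed here. The members and lists were chosen with earlier results of these data known. No batch is given in the labels, so a batch that ran with the groups and the deletion cannot be told apart. Ratios between genes and exact permutation tests used Python 3.11.15 with scipy 1.17.1.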

Additional observations from a re-analysis of the deposited data

How the results depend on the processing

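Il18r1 passed under all 14 alternatives and Ifng under 12. Across the 10 genes, 109 of 139 values kept direction and call, 28 kept direction and lost the call, and Il12rb2 changed sign in 2, with log2 fold changes of -0.20 to 0.09 when 1 library was left out, at 0.03 without deletion library 2 and 0.09 without control library 3. It was not tested at the 5 FPKM filter. The 5 members that rose became 3 with median-ratio scaling, 3 under quantile scaling, 2 when unfiltered, 2 with the replicate block, and 1 to 4 with 1 library left out (4 without control library 2). The 0 that fell stayed 0 under all 14. Over all genes, 1036 rose and 356 fell, against 559 and 632 with median-ratio scaling, 473 that rose under quantile scaling, 566 that rose unfiltered, and 728 that fell with voom. With 1 library left out, 161 to 1434 rose and 92 to 428 fell, the highest again without control library 2. With the replicate block 269 rose and 135 fell. Same-numbered libraries deviated together with r = 0.211, -0.135 and -0.162, and other pairs reached at most 0.336 (deletion library 2 with control library 3). With 3 libraries a group, these values cannot show whether libraries were paired. Of 224 list counts, 66 moved, by over 1.5 times or to or from 0. The cause of these shifts was not tested. Of the 10 genes, depth limits Il12rb2 most, at 62 to 121 fragments.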

Other observations

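Ratios of FPKM within a library do not change when the whole library is multiplied by a factor, as in median-ratio scaling, but quantile scaling does change them. The 4 ratios below were chosen after the values were seen, and each was tested by a two-sided exact permutation test on log ratios, for which 0.1 is the smallest p that 3 against 3 libraries allow. Tbx21 over Eomes was 1.39, 1.62 and 1.26 in deletion libraries 1, 2 and 3, against 0.781, 0.612 and 0.927 in control libraries 1, 2 and 3. By FPKM, Tbx21 was thus above Eomes in each deletion library and below it in each control library (exact p = 0.1, 0.2 adjusted over the 4 ratios). Which gene is higher depends on the lengths used, 2488 bases for Tbx21 and 3560 bases for Eomes. In fragments Tbx21 was below Eomes in deletion libraries 1 (349 against 359) and 3 (339 against 384). It was above Eomes in deletion library 2 (319 against 281). Ifngr1 over Ifngr2 was 4.52, 5.19 and 5.04 in deletion libraries, against 5.53, 6.39 and 6.54 in control libraries, also without overlap (exact p = 0.1, adjusted 0.2).

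Il18r1 over Il18rap was 4.997 ± 0.70 in deletion libraries and 4.79 ± 1.0 in control libraries (SD, n = 3 each, exact p = 0.8, adjusted 0.8), and the ranges overlapped. Il12rb1 over Il12rb2 was 17.1 ± 7.2 in deletion libraries and 12.3 ± 3.0 in control libraries (exact p = 0.4, adjusted 0.533), with 24.9 in deletion library 2 the highest. Xcl1, a chemokine of activated T and NK cells, was named after its values were seen. It was at 11.0, 15.6 and 13.9 FPKM in deletion libraries 1, 2 and 3, against 6.03, 9.61 and 8.56 FPKM in control libraries 1, 2 and 3. Xcl1 did not pass (limma, adjusted p = 0.0505). The adjusted p was 0.0699 with median-ratio scaling, 0.0809 with quantile normalization and 0.0754 with voom. With 1 library left out, it passed only without control library 2.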
